A study of Mus musculus with 22 samples.

Results

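The zinc finger protein (Zfp) genes were the autosomal protein-coding genes of the mouse whose symbol is Zfp followed by a number, as RefSeq annotates them on GRCm38. Of 20558 autosomal protein-coding genes, 360 carried such a symbol, and 358 were used after Zfp42 and Zfp57 were left out. DNA methylation was measured by rapid reduced representation bisulfite sequencing (rRRBS), which reads CpG-rich restriction fragments and counts methylated and unmethylated cytosines at each CpG. The samples were forebrains of wild-type C57BL/6 embryos at E10.5 without visible defects, 6 from control litters and 16 from EtOH-exposed litters. The mothers of the EtOH-exposed embryos had received 2 subcutaneous injections of 2.5 g/kg ethanol 2 h apart at E2.5, when embryos are at the 8-cell stage, and the mothers of the controls had received saline. The controls came from 3 litters and the EtOH-exposed embryos from 6. The labels gave neither the sex nor the litter of a sample, so the spread between embryos includes both and p-values take litter mates as separate. The forebrain is a mixture of cells, and a region methylated in part of the cells cannot be told apart from one methylated on part of the alleles. The identity of the tissue could not be checked here, because methylation levels carry no marker expression.

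Classical zinc fingers are small domains in which pairs of cysteine and histidine residues hold a zinc ion, and arrays of them read DNA sequence. Many Zfp proteins carry a KRAB box at the amino terminus, which recruits the corepressor Trim28 and repressive histone methylation to retroelements and to some imprinted genes. The family grew by tandem duplication, so neighbouring members can share long stretches of sequence, and the fingers of a gene are usually coded by a single long last exon. Other members without a KRAB box regulate neural development, belong to chromatin complexes or bind RNA.

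The coding sequences on GRCm38 showed this structure. Among the 358 genes, 196 had a KRAB box by its consensus and 162 did not. Fingers were found in 348 genes, with a median of 11 and at most 36, and 277 of these genes (79.6%) had every finger in the last exon. The last exon held every finger in 192 of the 196 genes with a KRAB box and in 85 of the 152 finger genes without.

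CpGs entered the comparison when at least 10 reads covered them in all 22 samples. This left 211808 autosomal CpGs, of which 3311 lay in Zfp genes: 1260 in promoters (1 kb upstream to 100 bp downstream of a start site), 470 in last exons and 1605 in the rest of the genes. Some CpGs lay in more than 1 class or gene. At least 1 such CpG was present in 210 of the 358 genes, and 180 genes had a region with 3 or more, which is 35.2% of the genes with a KRAB box and 68.5% of those without. The 242 regions were 94 promoters, 34 last exons and 114 rests of genes; the other genes had no region. The level of a region in an embryo is the mean of its CpG levels, and the level of a class is the mean over its genes.

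The libraries held between 68126469 and 132488556 cytosine calls in the controls and between 89179413 and 216223892 in the EtOH-exposed samples. They stood apart in 2 measures that do not come from Zfp genes alone. The first was taken at unmethylated CpGs, those with a median level under 1% over all 22 samples. There the level was 0.624% to 1.5% in the controls and 0.254% to 2.46% in the EtOH-exposed samples. EtOH-exposed samples 4, 5 and 6 lay above 2.3% and EtOH-exposed samples 1, 2, 3, 9, 12 and 14 below 0.3%. The coverage of methylated relative to unmethylated CpGs, on a log2 scale with the control mean at 0, was −0.74 to 0.26 in the controls and −2.17 to 0.03 in the EtOH-exposed samples. Ordered by the first measure, the libraries were split wherever neighbours differed by more than 1.3 times. They formed 3 groups, and all 6 controls fell in 1 of them with 7 EtOH-exposed samples. This grouping depends on the limit. At 1.2 times, control samples 3, 4, 5 and 6 formed a group without EtOH-exposed samples. Control samples 1 and 2 then shared a group with EtOH-exposed sample 8 alone. The group at 1.3 times held EtOH-exposed samples 8 and 11, at −1.54 and −0.81 on the second measure, so it is not fully matched for library. Differences within the group at 1.3 times, called the library group of the controls, are given below beside the class means, the regions with the largest group differences and the called tiles. They are not given for regions named by control level or as members of a listed group.

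The sequences below show what the levels refer to. They are written 5′ to 3′ on the strand of the gene, from GRCm38, and the promoters are the RefSeq windows from 250 bases before a start site to 50 bases after it. Capitals mark the CpGs whose level was measured or, for Zfp951 and Zfp423, all CpGs of a 100 bp window described further on. The promoter of Zfp110, a KRAB protein that binds the neurotrophin receptor p75, at chr7:12834511-12834810, plus strand, is shown as an unmethylated start region, with 12 measured CpGs between 0.549% and 4.05% in the controls. The promoter of Zfp335, which neural progenitors need in order to divide, is shown in 2 pieces because it was methylated at a distance only. At the start site (chr2:164911701-164912000, minus strand) its 7 measured CpGs had control levels of 0.110% to 2.36%. Further upstream (chr2:164912610-164912677) its 3 CpGs, at −920, −883 and −866 bp, had 89.9%, 90.8% and 92.5%, and the 36 bases around them occur at 1 to 2 places in the genome.
Zfp110 promoter: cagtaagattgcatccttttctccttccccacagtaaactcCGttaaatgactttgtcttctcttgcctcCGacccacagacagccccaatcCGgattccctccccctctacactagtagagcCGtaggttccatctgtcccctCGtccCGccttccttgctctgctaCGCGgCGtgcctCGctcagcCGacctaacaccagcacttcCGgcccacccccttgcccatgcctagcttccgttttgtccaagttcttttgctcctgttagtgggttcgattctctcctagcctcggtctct
Zfp335 promoter: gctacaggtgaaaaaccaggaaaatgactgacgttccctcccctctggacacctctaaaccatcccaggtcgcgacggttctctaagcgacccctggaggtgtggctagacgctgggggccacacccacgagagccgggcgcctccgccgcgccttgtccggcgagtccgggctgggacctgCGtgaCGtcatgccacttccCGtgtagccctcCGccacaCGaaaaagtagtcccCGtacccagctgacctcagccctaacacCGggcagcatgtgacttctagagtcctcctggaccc
Zfp335 distal promoter: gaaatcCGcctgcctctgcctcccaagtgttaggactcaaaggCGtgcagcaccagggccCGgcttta

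The coding pieces contrast finger arrays of different CpG number. Zfp334, a KRAB gene, has few CpGs in its array (chr2:165381254-165381351, minus strand), and all 6 shown were at 94.5% to 98.6%. Zfp771 (chr7:127253863-127253956, plus strand) has many, and the 15 shown lay between 0.617% and 13%, with the first 9 at 6.23% or more and the last 6 at 2.89% or less. Zfp865 (chr7:5030623-5030718, plus strand) has an array in an exon that was not the last, with a mean of 21.1 CpGs within 100 bp of each measured CpG against 33.3 in Zfp771, and the 13 CpGs shown lay between 64.3% and 89.1%. Zfp579 (chr7:4994569-4994667, minus strand) was between these, with 35.7% to 75.1% at the 9 CpGs shown.
Zfp334 last exon: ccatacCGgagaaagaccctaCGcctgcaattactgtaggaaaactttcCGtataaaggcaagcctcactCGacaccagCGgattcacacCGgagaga
Zfp771 last exon: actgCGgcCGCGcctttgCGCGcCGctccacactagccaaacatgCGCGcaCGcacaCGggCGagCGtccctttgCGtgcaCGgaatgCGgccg
Zfp865 finger array: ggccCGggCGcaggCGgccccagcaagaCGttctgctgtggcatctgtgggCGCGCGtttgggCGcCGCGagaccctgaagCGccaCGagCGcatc
Zfp579 last exon: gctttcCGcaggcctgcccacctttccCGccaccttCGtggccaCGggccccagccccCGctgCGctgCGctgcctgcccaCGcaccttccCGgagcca

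In control forebrain nearly all promoters of Zfp genes were close to 0%, 22 of 34 last exons were at 80% or more, and 76 of 114 rests of genes were at 20% or less with 14 at 80% or more. The mean level was 1.43% ± 0.48 (SD, n = 6) over 94 promoters, 63.4% ± 0.59 over 34 last exons and 22.2% ± 0.35 over 114 rests of genes. Over other autosomal protein-coding genes the values in the same embryos were 2.64% ± 0.46, 41.6% ± 0.33 and 25.6% ± 0.42. Zfp last exons stood 21.8 percentage points ± 0.41 (SD) above those of other genes, and were higher in 6 of 6 controls and 16 of 16 EtOH-exposed embryos. Zfp promoters stood 1.21 points and the rests of genes 3.37 points below those of other genes, and both were lower in 6 of 6 controls. These differences exceed the spread between embryos, but the sets hold different genes and CpGs, and no p is given for means over a chosen list.

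**Figure D1:**
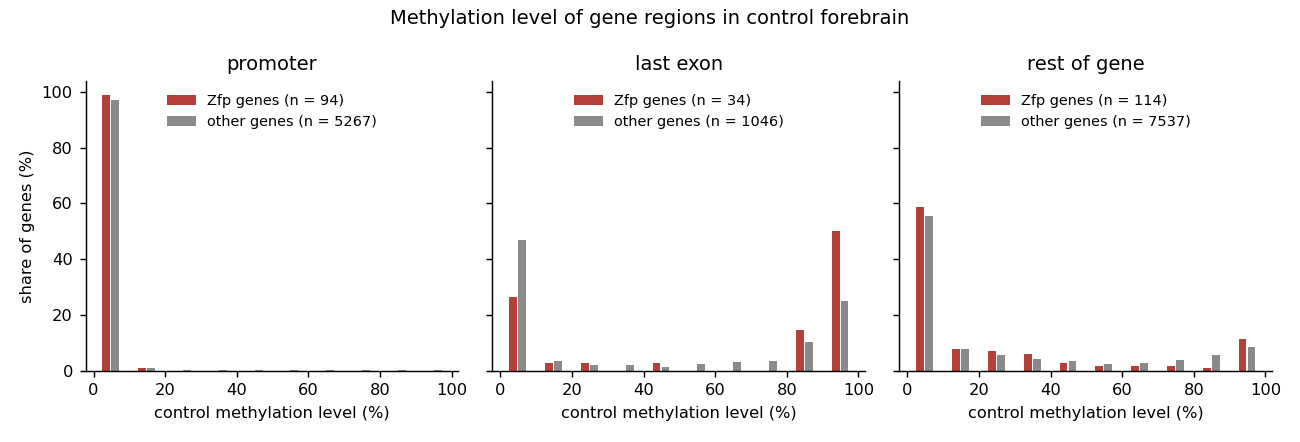
Share of genes (%) by control methylation level (%, bins of 10) in promoters, last exons and the rest of the gene, for Zfp genes (red) and other autosomal protein-coding genes (grey). Nearly all promoters fill the lowest bin, and 50% of Zfp last exons against 25.05% of the others fill the highest.

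The last exons fell into 2 groups rather than around the mean. Of 34 Zfp last exons, 22 (64.7%) were at 80% or more and 10 (29.4%) at 20% or less, against 35.5% and 50.2% of 1046 last exons of other genes. The median was 89.5% in Zfp genes and 19.2% in the others. Zbtb genes, another zinc finger family with a BTB domain, had 5 of 8 last exons at 80% or more. The 10 last exons with a KRAB box held 8 at 80% or more, and the 24 without held 14.

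The level followed the local number of CpGs, counted in a window reaching 100 bp to either side of each CpG. In last exons with 5 to 9 CpGs in that window, Zfp CpGs had a mean of 84.5% and CpGs of other genes 70.5%. With 10 to 14 the means were 72.9% and 46.2%, with 15 to 19 they were 23.3% and 15.6%, and with 20 or more 3.30% and 3.39%. Zfp CpGs were thus more methylated than those of other genes below 20 CpGs per window and close to them above it. The 22 highly methylated last exons had a median of 9.94 CpGs per window, from 4.67 to 15.6, and the 10 unmethylated ones a median of 19.1, from 10.4 to 30.9.

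**Figure D2:**
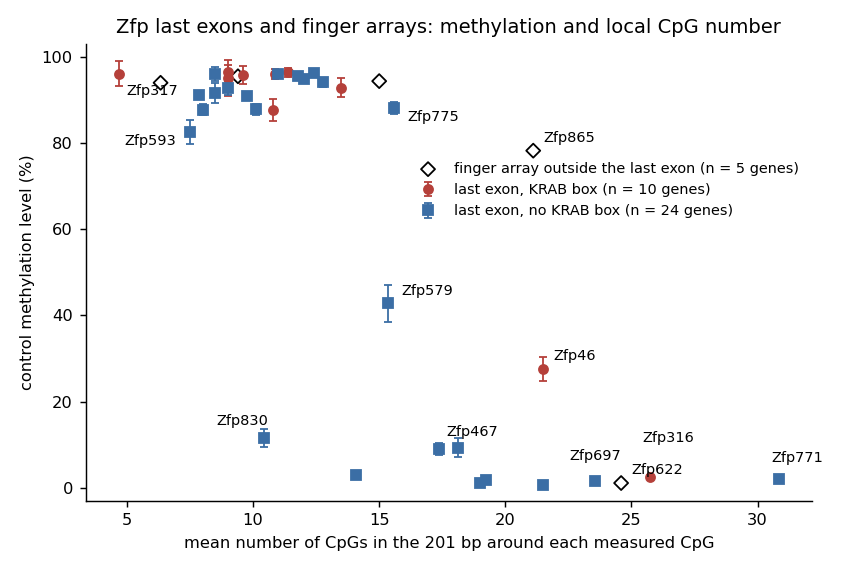
Control methylation level (%) of each Zfp last exon (mean ± SD over 6 embryos) against the mean number of CpGs in the windows around its measured CpGs, with a KRAB box (circles) or without (squares); open diamonds are finger arrays in another exon. Most points lie near 90% below 16 CpGs per window or near 0% above it, and Zfp865, Zfp579 and Zfp46 lie between.

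The genes furthest from the class median were the last exons with the lowest levels. Zfp281, a repressor of genes of the pluripotent state, had 0.68% ± 0.42 in the controls over 6 CpGs. Zfp503 (Nolz1), which acts in the developing striatum, had 1.21% over 27 CpGs, and its relative Zfp703 had 1.81% over 54. Neither of these sequences holds a classical finger by the pattern used, so their last exons code no array. Zfp697 and Zfp771 had 1.5% and 2.06% in exons that do code an array.

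Counting only CpGs inside finger arrays, in any exon, 29 genes had 3 or more. Of these arrays 18 were at 80% or more in the controls, 7 at 20% or less and 4 between. The unmethylated arrays were those of Zfp622, Zfp697, Zfp853, Zfp771, Zfp316, Zfp467 and Zfp648. Zfp622 is a factor of ribosome maturation and Zfp467 a promoter of fat cell differentiation. Only Zfp316 among them had a KRAB box. The arrays between were Zfp46 at 27.6%, Zfp579 at 42.8%, Zfp219 at 55.1% and Zfp865 at 78.2%. The mean of Zfp219 joins unlike parts. It holds 9 CpGs of the last exon, at 94.8%, and 10 outside it, in a rest of gene at 17.8% over 11 CpGs. Array CpGs with fewer than 10 CpGs per window were all above 20%, and the 198 with 20 or more had a median of 2.04% and a mean of 18.8%. Without the 39 of Zfp865, which averaged 77.3%, that mean was 4.46% over 9 genes. In the rest of the gene, 39 CpGs of Zfp865 at that density were above 20%, with a median of 81.7%, while its promoter had 1.22%. Zfp978 and Zfp996 each had 8 such CpGs and Zfp219 had 3.

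Of the 1260 promoter CpGs covered in all 22 samples, 3 exceeded 20%, and all 3 were the distal CpGs of Zfp335 printed above. They gave this promoter the highest mean of the class, 18.9% ± 0.74, with the 6 controls at 17.6% to 19.8%. Zfp978, a KRAB gene of chromosome 4, was next at 9.16% ± 3.31. Zfp819 had 2.99%, Zfp219 2.47% and Zfp110 1.99%. The median promoter was at 1.09%, close to 1.02% in other genes. Promoter CpGs not covered in every sample are outside these values. Called tiles described below lay in the promoters of Zfp951 and Zfp574, with control means of 41.4% and 56.7%.

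In the rest of the gene the genes furthest from the median of 2.91% were Zfp12 (95.6%), Zfp566 (95.4%), Zfp106 (95.2%), Zfp532 (94.1%) and Zfp142 (94.0%). Zfp142 holds 36 fingers, and the 6 CpGs measured lie in its array, in exons before the last. Zfp106 binds RNA, and its 4 measured CpGs lie in sequence found at 2 to 236 places in the genome, so that reads of other copies could have been placed there. The level rose with distance from the start site. Zfp CpGs had 1.19% at 0 to 100 bp, 2.47% between 500 and 1000 bp, 28.3% between 1000 and 5000 bp and 51.7% between 5000 and 20000 bp, against 1.59%, 3.70%, 20.2% and 54.4% in other genes.

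**Figure D3:**
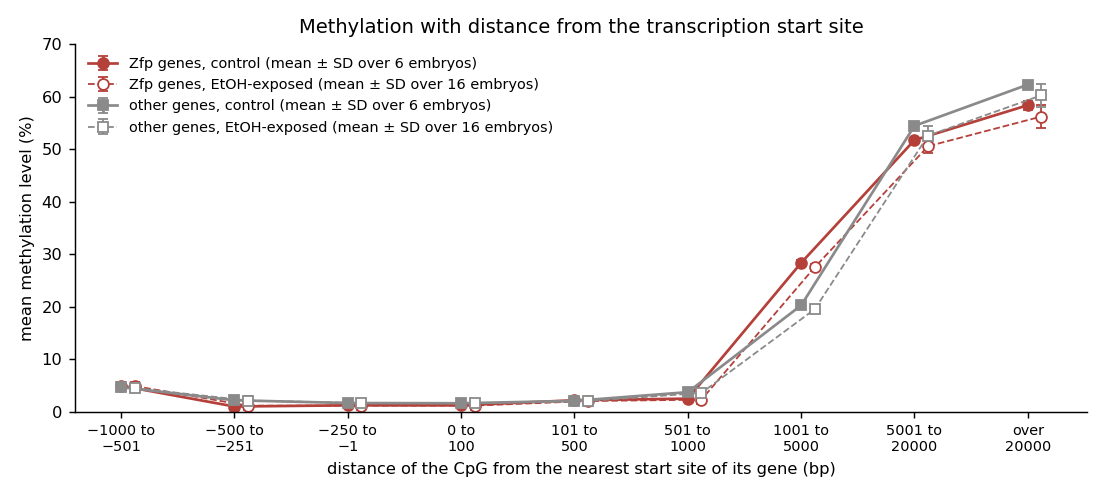
Mean methylation level (%) of CpGs by distance from the nearest start site of their gene (bp, 9 bins) in Zfp genes (red circles) and other genes (grey squares), for controls (filled, solid line) and EtOH-exposed embryos (open, dashed line); bars are SD over embryos. Levels stay under 5% to 1000 bp and rise beyond, and the Zfp curve lies above the other curve only between 1000 and 5000 bp among the bins beyond 1000 bp.

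The effect of ethanol was compared per embryo. Over Zfp promoters the level was 1.03% (lowest), 1.21% (median) and 2.10% (highest) in the controls and 0.528%, 1.32% and 2.96% in the EtOH-exposed embryos, a difference of means of −0.06 points. The 3 highest promoter levels were those of EtOH-exposed samples 4, 5 and 6, and the 6 lowest those of samples 1, 2, 3, 9, 12 and 14, the samples that also stood apart at unmethylated CpGs of all genes.

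Over last exons the level was 62.6%, 63.3% and 64.4% in the controls and 59.2%, 62.3% and 64.2% in the EtOH-exposed embryos, with means of 63.4% ± 0.59 and 62.2% ± 1.44 and a difference of −1.19 points. Samples 1 to 6 of both groups alone gave −2.23 points. The groups overlapped: 9 of 16 EtOH-exposed embryos lay below the lowest control and none above the highest. Over the rest of the gene the level was 21.8%, 22.1% and 22.7% in the controls and 19.9%, 21.6% and 22.3% in the EtOH-exposed embryos, with means of 22.2% ± 0.35 and 21.5% ± 0.66 and a difference of −0.73 points. Pooling the reads of a region, in place of averaging its CpGs, gave −2.29 points. Here 11 of 16 lay below the lowest control.

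The differences of other genes were −0.05 points in promoters, −1.26 in last exons and −0.79 in the rest of the gene, so that Zfp genes minus other genes differed by −0.01, 0.07 and 0.06 points between the groups. Over the alternatives run that do not leave out a single sample, these values ranged from −0.11 to 0.17, from −0.49 to 0.36 and from −0.15 to 0.42. Within the library group of the controls the Zfp differences were −0.02, −0.27 and −0.23 points, and those of other genes 0.05, −0.32 and −0.21. That group was formed by the level at unmethylated CpGs, and the median Zfp promoter was at 1.09%. The choice thus limits the differences and the spread of such promoter levels within the group. Without EtOH-exposed samples 4, 5 and 6 the Zfp differences were −0.39, −0.73 and −0.73. With the coverage of methylated relative to unmethylated CpGs as a covariate, the differences were −0.53 in promoters, 0.09 in last exons and −0.38 in the rest of the gene. The part of the libraries in these differences cannot be told apart from that of the exposure beyond these values.

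**Figure D4:**
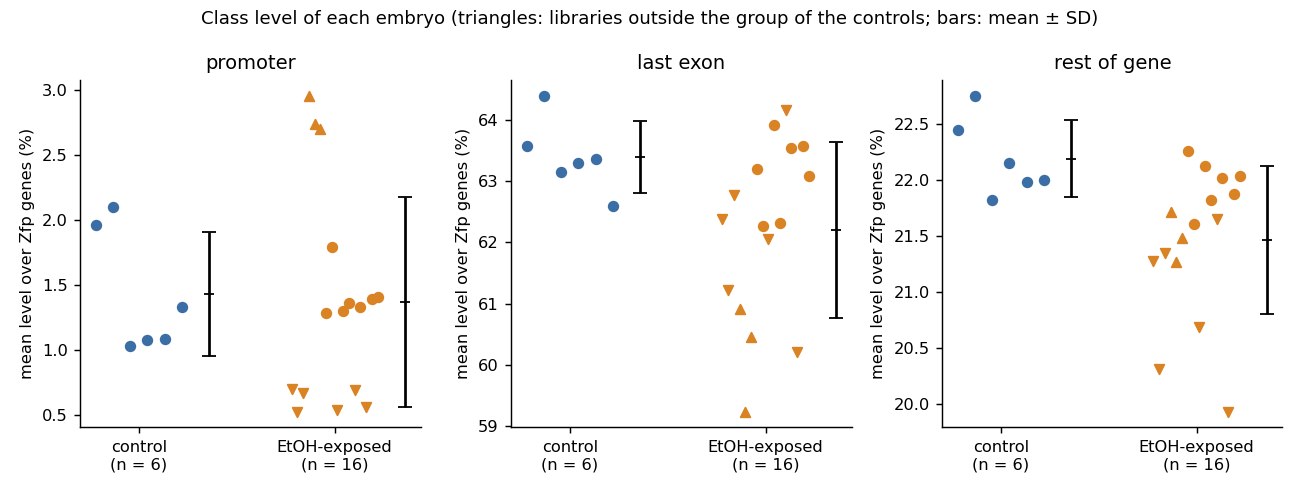
Mean methylation level (%) over Zfp promoters, last exons and rests of genes in each embryo (blue, control; orange, EtOH-exposed), with the mean ± SD beside each group; circles are libraries of the group that holds all controls and triangles the other libraries, and the axes do not start at 0. The lowest last exon and rest of gene levels are triangles, while the circles of both groups overlap.

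No single Zfp region passed the test. With limma on log2 ratios of methylated to unmethylated reads, fitted over all 14118 gene regions, 0 of the 242 Zfp regions had an adjusted p under 0.05, and the background was 0.00%. At an unadjusted p under 0.05 there were 21 (8.68%) against 9.22% of all regions. All 21 had a lower log2 ratio in EtOH-exposed embryos (9.12% of all regions passed and were lower). That ratio pools the reads of a region, so it also depends on the coverage of methylated relative to unmethylated CpGs. The Zfp335 promoter, 1 of the 21, had a log2 ratio difference of −1.28 (limma unadjusted p = 0.00632). Its level differed by −0.15 points, with 0 of 16 EtOH-exposed embryos below the lowest control. A logistic model with an F test gave 0 at the adjusted threshold and 13 unadjusted (5.37%, against 6.74% of all regions). Of the 21, 2 were promoters (2.13% of that class, against 0.987% of the promoters of all genes), 1 was a last exon (2.94% against 5.17%) and 18 were rests of genes (15.8% against 15.6%). The share of regions lower in EtOH-exposed embryos was 48.9% of Zfp promoters, 67.6% of last exons and 65.8% of rests of genes, against 39.9%, 65.6% and 62.5% of all regions. The median differences were 0.01, −0.62 and −0.16 points, against 0.05, −0.24 and −0.13.

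The promoter with the largest difference was that of Zfp978. Its level was 5.16%, 8.67% and 13.1% (lowest, median and highest) in the controls and 1.15%, 3.50% and 10.1% in the EtOH-exposed embryos, a difference of −5.15 points. Of the EtOH-exposed embryos, 13 of 16 were below every control. Within the library group of the controls, 7 of 7 were below every control and the difference was −5.74 points. The limma adjusted p was 0.252, the lowest of any Zfp region, and the F test gave an adjusted p of 0.699. The 13 CpGs, from −57 to 66 bp, each had 7.71% to 11.9% in the controls and 2.94% to 7.09% under ethanol, while the next CpG, at 113 bp, had 0.792% and 1.22%. Their surrounding 36 bases occur at 1 to 4 places in the genome, and the part of reads from such copies was not tested. The other 4 promoters of the list, Zfp428, Zfp606, Zfp790 and Zfp382, differed by −0.69, −0.67, 0.54 and −0.48 points from control levels under 2%, and by −0.60, −0.67, 0.72 and −0.50 points within the library group. Without control sample 6, the library of lowest coverage, the difference was −0.21 in Zfp428, −0.42 in Zfp606 and −0.26 in Zfp382, and without control sample 2 it was −0.45 in Zfp606.

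Among last exons the largest difference was that of Zfp169, a KRAB gene with 17 fingers, over 5 CpGs. Its level was 85.7%, 86.7% and 92.5% in the controls and 61.7%, 81.0% and 88.9% in the EtOH-exposed embryos, 7.83 points lower on average (difference −7.83), with 11 of 16 below the lowest control (limma adjusted p = 0.451). Zfp775 had 88.1% ± 1.41 and 82.0% ± 10.8, Zfp628 87.7% and 83.0%, and Zfp593 82.5% and 77.9% in controls and EtOH-exposed embryos, none past the test. These means rest on few embryos: the lowest of the 16 was 49.2% in Zfp775, 64.9% in Zfp628 and 55.4% in Zfp593, and the medians were 85.2%, 86.0% and 81.3%. Without EtOH-exposed sample 6 the difference of Zfp775 was −3.94 points, against −6.13 with it. Within the library group of the controls the differences were −4.54 points for Zfp169, −0.74 for Zfp775, −1.73 for Zfp628 and 0.44 for Zfp593. Zfp46, at 27.6% in the controls, differed by −2.87 points, and by −2.07 within that library group.

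In the rest of the gene Zfp180 differed most. Its 7 CpGs had 33.3%, 41.9% and 56.6% in the controls and 8.22%, 33.4% and 48.8% in the EtOH-exposed embryos, with means of 43.3% ± 8.81 and 30.9% ± 13.5 (limma adjusted p = 0.537). EtOH-exposed samples 4, 5 and 6 lay between 8.22% and 12.7%, the difference without them was −7.65 points, and within the library group of the controls it was −2.64 with 1 of 7 below the lowest control. Zfp978 differed by −5.24 points over 57 CpGs, Zfp872 by −5.01, Zfp750, which acts in epidermal differentiation, by −4.85, and Zfp219 by −3.996. Within the library group of the controls these differences were −3.27, −2.91, −1.87 and −2.77 points. In Zfp219 the controls had 16.1%, 17.9% and 19.7% and the EtOH-exposed embryos 10.02%, 13.3% and 18.96%, with 11 of 16 below the lowest control overall and 4 of 7 within the library group.

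**Figure D5:**
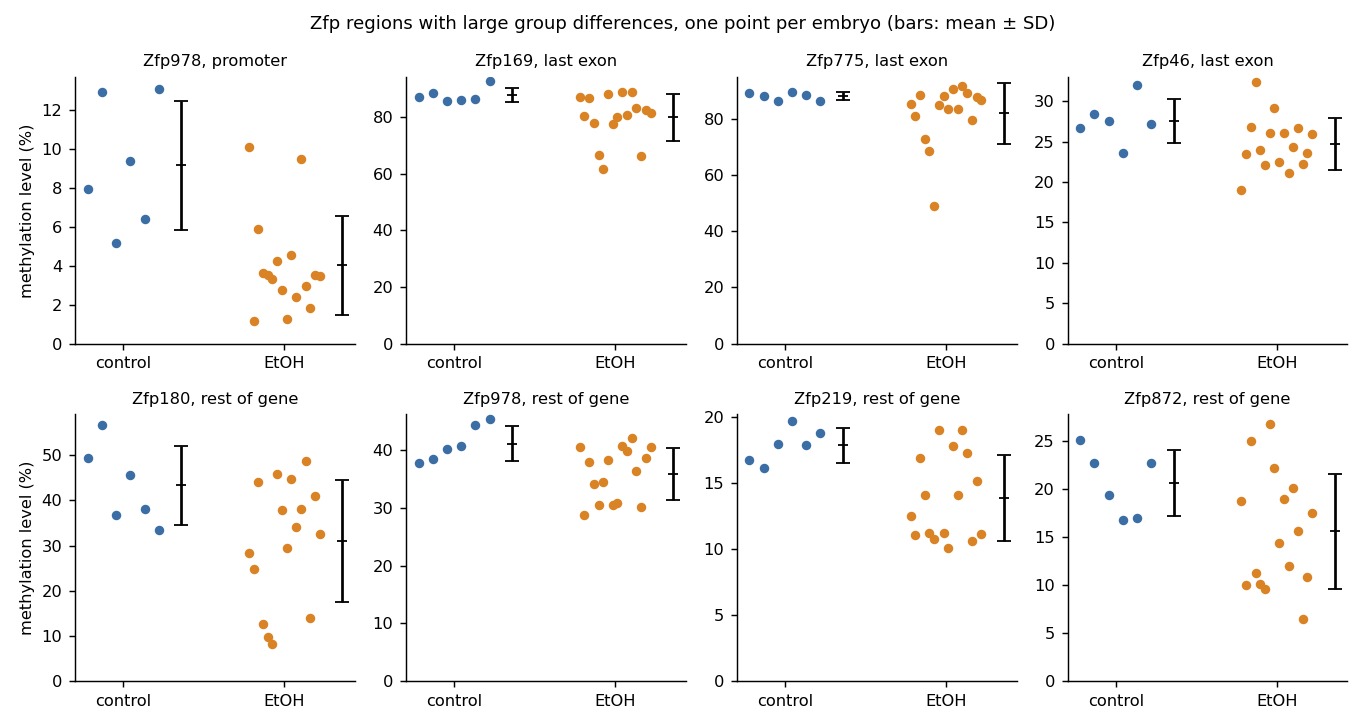
Methylation level (%) of 8 Zfp regions taken from those with the largest group differences, 1 point per embryo (blue, 6 controls; orange, 16 EtOH-exposed embryos) with the mean ± SD beside each group. The groups overlap in all 8 panels, and in Zfp169, Zfp775 and Zfp180 a few EtOH-exposed embryos lie far below the rest.

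The study's unit, the 100 bp tile with at least 2 CpGs, covered 1502 tiles in 274 Zfp genes. With a logistic model without an overdispersion term, chosen here, and the limits of q under 0.01 and at least 10 points, 18 Zfp tiles in 13 genes were called (1.198%), all lower in EtOH-exposed embryos. The background was 1.14% of 114430 tiles in either direction, 1.08% lower and 0.0516% higher, so the Zfp share was near it. With the overdispersion between embryos estimated for each tile, the F test called 0 (smallest q among the 18, 0.830; 81 Zfp tiles, or 5.39%, at an unadjusted p under 0.05 against 5.77% of all tiles), and limma on log2 ratios called 0 (56 unadjusted, or 3.73% against 4.45%). Both also called 0 of all 114430 tiles. In none of the 18 did the groups separate, and the share of all called tiles in which they separate was not computed. All 18 had intermediate control levels, between 25.9% and 76.8%. Among the 97 Zfp tiles between 20% and 80%, 18.6% were called, against 10.9% of 10221 such tiles overall. Of the 1014 Zfp tiles at 20% or less and the 391 at 80% or more, 0 were called, where the shares over all tiles were 0.0209% and 0.422%.

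The largest called difference, weighted by coverage, was in an intron of Zfp423, a partner of EBF and SMAD factors needed for cerebellar development, at chr8:87697301-87697400 (minus strand). Its 5 controls with data had 32.7%, 53.5% and 58.4% (lowest, median and highest) and its 16 EtOH-exposed embryos 16.1%, 43.1% and 58.1%. The difference was −18.2 points weighted by coverage and −9.91 points between the unweighted means of the embryos, 49.98% and 40.1%. The unweighted difference was −4.88 points within the library group of the controls.
Zfp423 intron: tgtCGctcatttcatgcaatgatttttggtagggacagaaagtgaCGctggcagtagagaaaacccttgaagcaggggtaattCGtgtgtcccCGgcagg

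Zfp978 held 4 called tiles, all in introns. At chr4:147219501-147219600 the controls had 49.5%, 50.9% and 70.6% and the EtOH-exposed embryos 10.4%, 36.2% and 60.3%, with 11 of 16 below the lowest control and an unweighted difference of −19.4 points, or −15.1 within the library group. For its called neighbours, starting at 147219401 and 147219601, the unweighted differences were −18.9 and −14.7 points, and −12.4 and −11.97 within the library group. The 36 bases around some CpGs of these tiles occur at up to 66 places, and the fourth tile of Zfp978 and the tile of Zfp993, another KRAB gene of chromosome 4, also lie in the gene models Gm13146 and Gm13140. The unweighted differences of these tiles were −8.23 and −19.9 points over all samples and −26.8 and −23.5 within the library group, where the former had data in 1 EtOH-exposed embryo and the latter in 5. The difference of the former was −12.6, −12.4, −3.53 and −1.62 points without control samples 1, 2, 4 and 6 in turn, and −4.51 without EtOH-exposed sample 8. Zfp180 held 2 tiles in an exon near its start, at chr7:24082101-24082200 and the next 100 bp, with weighted differences of −16.1 and −14.2 points. Their unweighted differences were −10.8 and −9.66 points, and −1.49 and 0.06 points within the library group of the controls.

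Zfp579 had most of its EtOH-exposed embryos below the controls. At chr7:4994401-4994500, in the coding part of the last exon near the piece printed above, the 5 controls with data had 38.7%, 43.7% and 51.8%, and the 16 EtOH-exposed embryos 11.7%, 30.96% and 48.3%, with 13 of 16 below the lowest control. The unweighted difference was −16.2 points, and within the library group of the controls it was −14.6 and 6 of 7 were below the lowest control. The last exon of Zfp579, over 19 CpGs covered in every sample, had 42.8% ± 4.28 and 40.0% ± 3.56, a smaller difference. Control sample 2 had no value in the tile, so the tile and the last exon rest on different CpGs and controls. The tile of Zfp777 at chr6:48024901-48025000, in the coding part of its last exon, differed by −14.1 points weighted and −15.6 unweighted, and by 0.36 points unweighted within the library group. That of Zfp454 differed by −13.8 points weighted and −8.18 unweighted, and by −11.4 weighted and −8.11 unweighted within the library group.

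The other called tiles, outside the 10 with the largest differences and chosen for naming after their values were seen, lay in Zfp469, a gene of brittle cornea, Zfp777, Zfp653, Zfp710, Zfp296, a factor of pluripotent cells, Zfp574, Zfp951 and again Zfp978. In Zfp469, 13 of 16 EtOH-exposed embryos were below the lowest control, as many as in Zfp579, and 4 of 7 within the library group. In Zfp653, 12 of 15 EtOH-exposed embryos were below the lowest control, and 6 of 6 within the library group. Its unweighted difference was −15.1 points over all and −16.8 within that group. The unweighted differences over all samples and within the library group were −13.7 and −7.35 points in Zfp469, −11.4 and 3.999 in the second tile of Zfp777 (−5.60 over all samples but control 6), −11.9 and −11.4 in Zfp710, −7.27 and −2.90 in Zfp296, and −7.91 and −1.35 in Zfp574. Those of Zfp951 and Zfp574 were the 2 called tiles in promoters, and the one of Zfp574 also lies in Grik5. In Zfp951 (chr5:104859978-104860277, minus strand; capitals in the window called) the tile had 28.9%, 41.0% and 60.2% in 5 controls and 12.8%, 25.4% and 44.0% in 15 EtOH-exposed embryos. The unweighted difference was −14.2 points, and −10.1 within the library group with 3 of 7 below the lowest control.
Zfp951 promoter: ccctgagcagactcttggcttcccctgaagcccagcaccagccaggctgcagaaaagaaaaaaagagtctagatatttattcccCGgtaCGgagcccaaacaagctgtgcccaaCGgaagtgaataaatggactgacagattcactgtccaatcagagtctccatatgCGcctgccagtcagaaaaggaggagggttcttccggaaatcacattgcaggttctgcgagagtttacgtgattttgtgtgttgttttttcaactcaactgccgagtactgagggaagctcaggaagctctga

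Members with known roles were read as groups. Of 12 genes of neural development, 10 had a region, and 0 of their 16 regions passed limma, with 10 lower under ethanol and a median difference of −0.12 points. Their promoters were unmethylated, with 0.955% in Zfp148, 1.04% in Zfp423 and 1.38% in Zfp292, except the distal CpGs of Zfp335. Their last exons were split, with Zfp462, a heterochromatin-linked factor, at 96.1% and Zfp281, Zfp503 and Zfp703 below 2%. In the rest of the gene Zfp521, a regulator of neural differentiation, had 46.0%, Zfp423 26.1%, Zfp462 22.6% and Zfp536, a repressor of neuronal differentiation, 14.6%. Zfp423 moved by −1.29 points (limma adjusted p = 0.543), and the promoter of Zfp335 by −0.15 points (limma adjusted p = 0.287). These p-values belong to the log2 ratio of pooled reads, which differed by −1.28 in the promoter of Zfp335. The finger arrays of Zfp423 and Zfp521, which lie before the last exon, were at 94.4% and 95.5% in the controls and 94.1% and 94.7% under ethanol.

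Of 5 genes that silence retroelements or imprinted genes, 2 had a region. The promoter of Zfp568, which silences a placental transcript of Igf2, had 0.985% ± 0.76 and 1.17% ± 1.07, and that of Zfp708 1.28% ± 1.21 and 1.15% ± 0.88. Zfp445, Zfp809 and Zfp932 had no region. Of 9 genes that act on RNA, ribosomes or ubiquitin, 7 had 11 regions and 0 passed. Zfp598, which marks collided ribosomes, had a promoter at 1.23% and a rest of gene at 90.7%, and Zfp36 (tristetraprolin) had 1.42% in the rest of the gene. Zfp451, a SUMO ligase, had 9.79% in both groups in the rest of the gene, and a limma adjusted p of 0.279 on the log2 ratio of pooled reads. Of 7 genes of chromatin cofactor complexes, 5 had 8 regions and 0 passed. Zfp687 had 1.09% in its promoter and 0.916% in the rest of the gene in the controls, Zfp217 27.0% and 26.8% in controls and EtOH-exposed embryos, and Zfp532 94.1% and 91.6% in the rest of the gene. The EtOH-exposed mean of Zfp532 rests on few embryos: samples 4, 5 and 6 had 84.1%, 87.7% and 74.9%, and the median was 93.7%.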

How the data were processed

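The deposited tables gave, per the labels and file headers, a coverage count and the percent of methylated and unmethylated reads for each cytosine. The authors trimmed reads with Trim Galore 0.3.3, aligned them to mm10 with BSMAP 2.90 and exported calls in MethylKit layout. Methylated read counts were rebuilt from coverage and percent. CpGs needed 10 reads in all 22 samples and regions 3 such CpGs. PCR reads carried no molecular identifiers, so depth gives counting error only. Genes, start sites and promoter sequences came from RefSeq on GRCm38, and 299 of 358 genes matched its promoter table. KRAB boxes needed 12 of 18 consensus positions in the translated longest transcript.

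Regions were tested with limma 3.58.1 (R 4.3.3) on log2 ratios with 0.5 added to both counts and Benjamini-Hochberg adjustment over 14118 regions, with an F test of a logistic model as an alternative. Tiles of 100 bp needed 2 CpGs, 10 reads and 5 samples per group. Summaries used Python 3.11.15. On simulated gene regions with spread between samples and 200 regions changed by 20 points, limma recovered 93.5% with 125 false calls and the F test 93.5% with 17. The logistic model without overdispersion, the form used for the called tiles, recovered 100% with 8145 false calls among the 14118 regions. These calls used an adjusted p under 0.05 alone, without the tile limits of q under 0.01 and 10 points. On 37944 simulated tiles without spread between samples, that model with the tile limits recovered 100% of 200 changed tiles with 0 false calls. Tiles with spread were not simulated, so the false calls of the tile limits under spread are not known. Members, lists and tests were chosen with earlier results of these data known, so permutation tests of means over members were computed, for the reported values and the alternatives, but no p is given for them. Named genes were, per class, the 5 furthest from the control median and the 5 with the largest group difference, the 10 called tiles with the largest difference, and the listed genes. Samples were grouped by treatment label. Replicate numbers were shared by 6 samples of each group, and the deviations of same-numbered samples had correlations of −0.195 to 0.126. The main comparisons did not pair samples by number. Correlations of differently numbered samples were not computed, so whether the numbers pair samples was not tested.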

Additional observations from a re-analysis of the deposited data

Results flagged for a closer look

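Among 45 control groups of 5 or 6 samples examined, 6 held a sample far from the others. Chance gives about 1 in 20 for a group taken alone. The groups share the same controls, and most were named for extreme levels or large differences, so the count cannot be set against that rate. Control sample 6, the library of lowest coverage, was the highest for Zfp minus other genes in promoters (−0.991 points, nearest control −1.19) and in the rest of the gene (−3.17, nearest −3.36). It was also the highest for the Zfp428 promoter (4.01%, nearest 1.56%) and for the Zfp777 tile at chr6:48024901-48025000 (96.3%, nearest 75.8%, 5 samples). Control sample 2 was the lowest for the rest of the gene of Zfp566 (91.7%, nearest 95.3%) and of Zfp142 (89.3%, nearest 93.9%).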

How the results depend on the processing

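No Zfp region was called under any alternative run. The sign-flip of the block could hardly call 1, because its smallest p is 0.03125 before adjustment over 14118 regions. The Zfp promoter difference of −0.06 points was 0.039 with at least 1 CpG per region. The last exon difference of −1.19 was 0.0861 with the coverage covariate, and the rest of gene difference of −0.73 was −2.29 with reads pooled per region and −0.74 without CpGs in promoters of other genes. With the replicate block, which could use only samples 1 to 6 of each group, the 3 differences were 0.28, −2.23 and −0.96. The same samples unpaired, an alternative chosen after seeing the data, have the same differences of means by construction. For Zfp minus other genes, the promoter value of −0.01 was 0.0324 with a coverage minimum of 5, 0.0281 with strands separate, 0.17 with at least 1 CpG, −0.11 with at least 10 CpGs, and 0.0634 with the block or unpaired. The last exon value of 0.07 was −0.49 with a minimum of 20, −0.0058 with strands separate, −0.46 with at least 10 CpGs, −0.0404 over all CpGs, −0.12 with the block or unpaired, and up to 0.36 with at least 1 CpG. The rest of gene value of 0.06 was −0.0281 with a minimum of 20, −0.15 over all CpGs, −0.0547 without EtOH-exposed samples 4, 5 and 6, −0.0153 in the library group, −0.15 with the covariate, and up to 0.42 with at least 1 CpG. The mean distance of embryos from their group median was 0.22, 0.74 and 0.22 points larger under ethanol; it was −0.27 for promoters, 0.0944 for last exons and −0.10 for the rest of the gene in the library group, 0.0111, 0.46 and 0.28 without EtOH-exposed samples 4, 5 and 6, and 0.85 for last exons and 1.46 for the rest of the gene with pooled reads. The 18 called tiles became 0 with the F test, 0 with limma and 0 at 20 points (0.0883% of all tiles). They became 5 with all 22 samples (0.898% of the Zfp tiles tested, against 0.585% of all tiles) and 10 with 20 reads (0.956% against 0.726%). The number was 8 without EtOH-exposed samples 4, 5 and 6 (0.534% against 0.39%) and 12 in the library group (0.822% against 0.924%). It was 21 with unweighted means (1.398% against 1.71%), 9 with the block in the logistic model (1.57% against 2.02%) and 30 with the samples of the block unpaired (2.24% against 3.08%). The block by sign-flip called 0, also of all tiles, but could call none. Its 64 flips allow no p under 0.03125, which lies above the q limit of 0.01. At an unadjusted p under 0.05 it had 13 Zfp tiles, or 2.27% against 3.69%. Leaving out 1 sample at a time gave −0.16 to 0.0753 for promoters, −1.35 to −0.99 for last exons, −0.80 to −0.62 for the rest of the gene, −0.0269 to 0.0343, −0.036 to 0.19 and 0.0222 to 0.10 for Zfp minus other genes, 14 to 25 tiles (0.932% to 1.66%, against 0.868% to 1.59% of all tiles) and 0 to 0 regions. Without CpGs in sequence found at more than 1 place, chosen after seeing the data, the class differences were −0.06, −1.19 and −0.70. All 470 last exon CpGs lay at 1 place and stayed in, so the last exon value could not change. The cause of the changes in this section was not tested.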
